A study of Schizosaccharomyces pombe with 2 samples.

Results

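The genes described here lie on 4 sequencing clones of chromosome II of the fission yeast Schizosaccharomyces pombe: SPBPB2B2, SPBPB10D8, SPBC1683 and SPBC1198. They were taken by systematic name, the name that joins a clone and a gene number, and they include the galactose genes gal1, gal7 and gal10. Of 4980 gene probe names on the array, 50 belonged to these clones: 19 of SPBPB2B2, 7 of SPBPB10D8, 11 of SPBC1683 and 13 of SPBC1198. Another 4 probe names of the same clones (SPBPB2B2.01, ght4, frp1 and fbp1) were left out by the selection rule, and no probe carried a name of the neighbouring clones SPBC1348 or SPBPB21E7. The genes had been grouped as lying near the left end of chromosome II, but the RefSeq gene table of assembly ASM294v3 goes against that for SPBPB2B2. It places the 16 SPBPB2B2 genes that it lists at the right end, between the 10th and the 25th gene from it, and the 31 genes of the other clones at the left end, between the 30th and the 68th gene. The remaining 3 members, SPBPB2B2.03c, SPBPB2B2.04 and SPBPB2B2.20c, could not be matched to the table.

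Each of 2 spotted cDNA arrays, made from independent RNA preparations, set 2 cultures of wild-type cells against each other. One culture carried the plasmid pDUAL-Ssn6 and the other the empty plasmid pDUAL-EMPTY, both growing logarithmically at 30 degrees in minimal medium without uracil (MM-URA), which keeps the plasmid. The promoter that drives ssn6 on the plasmid is not given in the sources used here. A probe had up to 2 spots on each array, 11520 spots in all per array, and precision is limited by the number of arrays.

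Ssn6 is a co-repressor: with Tup1-type partners (Tup11 and Tup12 in fission yeast) it is brought to promoters by DNA-binding proteins and holds genes off until a signal releases them. Fission yeast subtelomeres, the stretches next to the chromosome ends, hold many genes that are kept low during growth in rich conditions and come up under stress or starvation. Gal7, Gal1 and Gal10 are the uridylyltransferase, kinase and epimerase of the Leloir pathway, which turns galactose into a form that glycolysis can use.

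The ratio given throughout is channel B over channel A of the scanner files, on the log2 scale after normalization, with 50 added to each signal first. The probe for ssn6 itself gave ratios of 1.91 on array 1 and 2.17 on array 2, with a mean of 2.04 ± 0.19 (SD, n = 2; limma adjusted p = 5.15e-05). Channel B was thus brighter for ssn6 on both arrays and is likely the pDUAL-Ssn6 culture. ura4, a gene of uracil synthesis, was lower in channel B, with ratios of -1.94 and -1.78 (mean -1.86 ± 0.11, SD, n = 2; limma adjusted p = 7.84e-05), although both cultures grew without uracil. The labels, however, describe a dye swap, and the files do not name the dye of each channel. The 2 arrays ran the same way as deposited, with a Pearson correlation of 0.81 across the 4832 tested genes, which are not independent replicates, so no sign was turned. Results are therefore given by channel. If a channel holds the same dye on both arrays, dye and culture cannot be told apart.

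Of the 50 members, 47 were bright enough to be tested, and 21 of these passed an adjusted p of 0.05 in limma over all 4832 tested genes. Among the 21, 20 were lower in channel B and 1 was higher. The 20 include ftm7, which was too dim in channel B on both arrays and was tested through its channel A signal only. Over all tested genes 28.9% passed, 16.9% lower and 12.0% higher in channel B. The members' share was 44.7%, with 42.6% lower. The median ratio was -0.33 over the 47 members and 0.02 over all tested genes. On array 1 alone the members' median was -0.44 and on array 2 it was -0.46. None of the 47 passed with the authors' deposited values, where no gene of the array passed and the members' median was -0.40. With the sign of array 1 turned, likewise no gene of the array passed, and the members' median was 0.072. The same RNA difference could come from fewer transcripts per cell or from fewer cells expressing a gene, which bulk samples cannot tell apart.

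**Figure D1:**
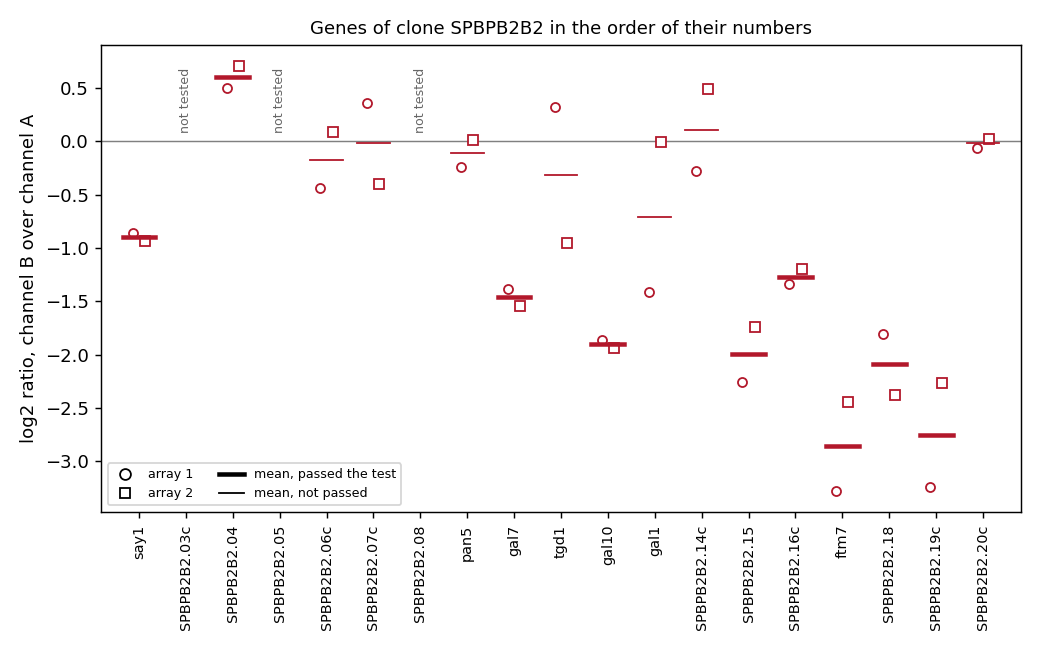
Normalized log2 ratio B/A (vertical axis) for the genes of clone SPBPB2B2 in the order of their numbers, with circles for array 1, squares for array 2 and bars for the mean; thick bars passed the test. gal7 and gal10 sit below -1.3 on both arrays, gal1 does so on array 1 only, and the 5 genes from SPBPB2B2.15 to SPBPB2B2.19c all lie below -1.2 as measured, with ftm7 below the dim limit in channel B.

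**Figure D2:**
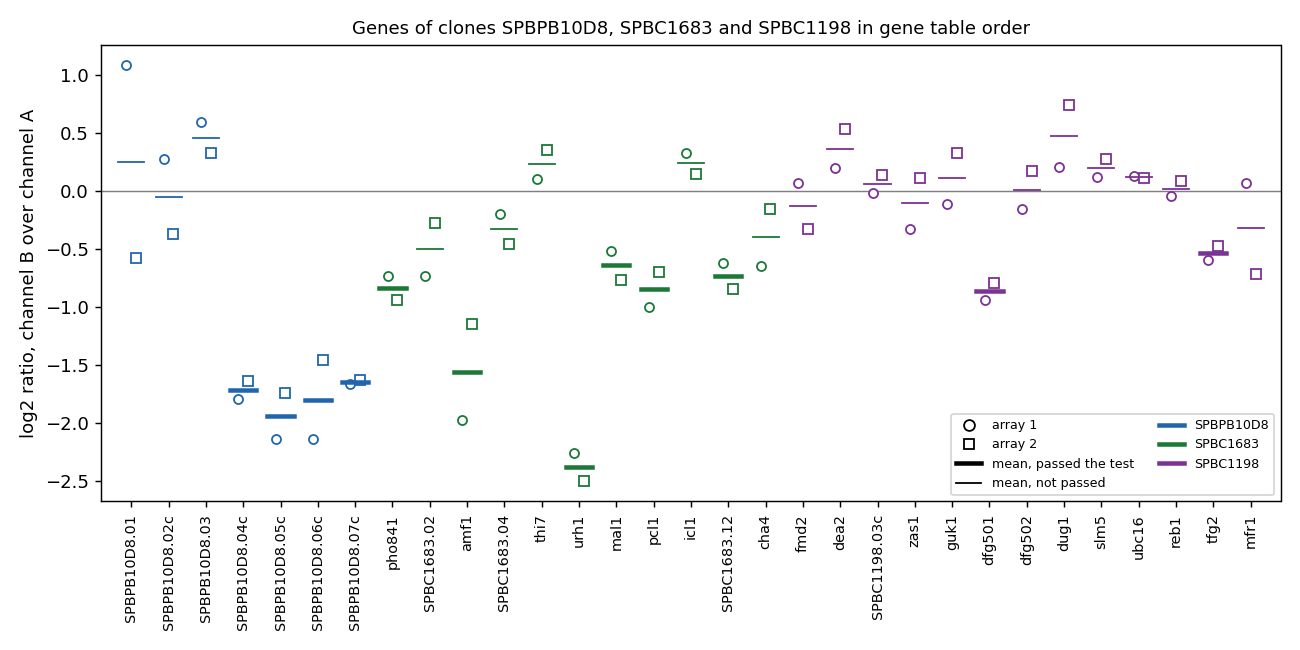
Normalized log2 ratio B/A (vertical axis) for the 31 genes of clones SPBPB10D8, SPBC1683 and SPBC1198 in gene table order, with the same symbols and 1 colour per clone. The lowest means are those of urh1 and of the 4 genes from SPBPB10D8.04c to SPBPB10D8.07c, and most SPBC1198 genes lie near 0.

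The plots of ratio by gene order show where along the clones the lower values lay. On SPBPB2B2, 16 genes were tested, of which 8 were lower and 1 was higher in channel B, with a median of -0.80. On SPBPB10D8, 4 of 7 were lower and none higher, with a median of -1.65. On SPBC1683, 6 of 11 were lower and none higher, with a median of -0.64. On SPBC1198, the clone furthest from the end among these, 2 of 13 were lower and none higher, with a median of 0.02. Taken as the 31 genes of the left end, 12 were lower and none higher, with a median of -0.32. As shares, 50%, 57.1%, 54.5% and 15.4% of the tested genes of these clones, in the order given, were lower. Over all tested genes the share was 16.9%, so the count on SPBC1198 was near that of any genes. The difference between clones was not tested.

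Of the galactose genes, gal7 and gal10 were lower in channel B and gal1 did not pass. On array 1 the gal10 probe gave a background-corrected signal of 93586 scanner units in channel A against 28599 in channel B. Array 2 gave 102493 against 30855. Channel A was the brighter by a wide margin on both arrays, and the normalized ratios were -1.86 and -1.94, a mean of -1.90 ± 0.05 (SD, n = 2; limma adjusted p = 6.31e-05), or 3.73-fold lower in channel B.

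For gal7, array 1 gave 55480 in channel A against 25664 in channel B. Array 2 gave 65212 against 25469. Channel A was the brighter on both arrays, and the mean ratio was -1.46 ± 0.12 (SD, n = 2; limma adjusted p = 0.000275), or 2.76-fold lower in channel B. The ratios of the pair of gal7 spots on array 1 were -2.38 and -0.38, while the median difference between the spots of a member on that array was 0.22, so the array 1 value is an average of unlike spots. The spot at -2.38 read 13991 in channel B, below the dim limit of 21251 there. This limit is the 95th percentile of the spots that carry no yeast gene.

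The gal1 probe gave 46901 in channel A against 22150 in channel B on the first array, but 36038 against 41195 on the second. Its ratios were -1.41 and -0.005, so that the arrays disagreed, and the mean of -0.71 ± 0.995 (SD, n = 2) did not pass (limma adjusted p = 0.0954), though it did with no normalization (-0.55, adjusted p = 0.0475). The low value of array 1 came mainly from 1 spot: the ratios of its pair were -0.37 and -2.45, the widest disagreement between spots of any member on that array. The spot at -2.45 read 10694 in channel B, below the dim limit of 21251. On array 2 both gal1 spots lay near 0, at -0.01 and 0.001.

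The genes directly beside the galactose genes did not pass. pan5, a ketopantoate reductase of pantothenate synthesis, had ratios of -0.24 and 0.01. SPBPB2B2.14c, on the other side, had -0.28 and 0.49. It was dim: on array 1 channels A and B read 24043 and 22164, close to the limits of 22129 and 21251. On array 2 its channel A read 14237, below the limit of 17908. tgd1 lies between gal7 and gal10, and the gene table lets it overlap gal10. Its ratios had opposite signs, 0.32 on array 1 and -0.95 on array 2, and its mean was -0.31 ± 0.90 (SD, n = 2; limma adjusted p = 0.410). Probe sequences and strands were not used here, so whether the tgd1 and gal10 probes share signal was not tested.

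Past SPBPB2B2.14c, towards the chromosome end in the gene table, 5 genes in a row were lower in channel B: SPBPB2B2.15, SPBPB2B2.16c, ftm7, SPBPB2B2.18 and SPBPB2B2.19c. For ftm7 only a bound can be given, as set out below. The means of the 4 other than ftm7 ran from -1.27 to -2.76, and the stretch was picked out after its values were seen. SPBPB2B2.19c was the brightest of them. Array 1 gave it 1149860 in channel A against 184158 in channel B, and array 2 gave 460962 against 120184. Its ratios were -3.25 and -2.27, a mean of -2.76 ± 0.69 (SD, n = 2; limma adjusted p = 5.84e-05), or 6.76-fold lower in channel B. SPBPB2B2.18 overlaps SPBPB2B2.19c at one end in the gene table. Its signals were 141073 (channel A) against 44203 (channel B) on array 1 and 184078 against 43417 on array 2. The mean ratio of SPBPB2B2.18 was -2.09 ± 0.41 (SD, n = 2; limma adjusted p = 8.69e-05). Both genes of this overlapping pair were thus well above the dim limit in both channels and lower in channel B on both arrays.

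The ftm7 probe gave 44244 in channel A against 4832 in channel B on array 1, and 45867 against 9566 on array 2. Its channel B signals were below the dim limit on both arrays, the limit being the 95th percentile of the spots that carry no yeast gene (21251 and 18211 in channel B). Only a bound can therefore be given. Before normalization, the channel A signal of ftm7 stood 2.08-fold and 2.52-fold above the channel B limits of the arrays. By that bound ftm7 was at least 2.29-fold lower in channel B (geometric mean of both arrays). With the lowest normalized channel B signal of any probe above the limit in place of that of ftm7, the bound was 3.09-fold. The measured mean ratio of -2.86 (limma adjusted p = 3.05e-05) rests on channel B signals below the limit. ftm7 entered the test through channel A only, so this p-value adds nothing to the bound. SPBPB2B2.15 had ratios of -2.26 and -1.74, a mean of -1.999 ± 0.37 (SD, n = 2; limma adjusted p = 9.79e-05). Its channel B signal was below the limit on array 1 only, at 16343. SPBPB2B2.16c had ratios of -1.34 and -1.20. SPBPB2B2.20c, the last of the clone by number, had ratios of -0.06 and 0.03. It could not be matched to the gene table, so its place beside this run is known from its number only.

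The gene table names 7 ftm genes, of which 5 had tested probes. All 5 were called lower in channel B, against 16.9% of all tested genes. Besides ftm7 these were ftm1 with a mean of -2.83, ftm2 with a measured -2.68, ftm3 with -1.69 and ftm4 with -2.73, which lie among the outermost genes of chromosome I. The channel B signals of ftm2, like those of ftm7, were below the dim limit on both arrays. Both genes entered the test through channel A only, so their calls and measured means rest on signals below the limit. The family was singled out after its values were seen, and how far its members share sequence on these probes was not tested.

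On the other side of the galactose genes by number, from SPBPB2B2.02 to pan5, 5 genes were tested. Of these, 1 was lower and 1 higher in channel B, with a median of -0.11. say1, named after the budding yeast enzyme that removes acetyl groups from sterols, had ratios of -0.86 and -0.93 (mean -0.90 ± 0.05, SD, n = 2; limma adjusted p = 0.00362). Its channel B signal of 22416 on array 1 was close to the limit of 21251, and 1 spot there was below it, at 20212. SPBPB2B2.04 was the only member higher in channel B, with ratios of 0.50 and 0.71 (mean 0.60 ± 0.15, SD, n = 2; limma adjusted p = 0.0247). It was dim: channel A read 22674 on array 1, where 1 of its spots gave no signal, and 21082 on array 2, close to the limits of 22129 and 17908 in that channel. SPBPB2B2.06c had a mean of -0.18 and SPBPB2B2.07c one of -0.02, neither of which passed. The value of SPBPB2B2.07c averages ratios of 0.36 and -0.40, and its spots on array 1 disagreed, at -0.55 and 1.27. With spots of flag C only its mean was -0.48 (limma adjusted p = 0.0549).

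Of SPBPB10D8, the 4 genes with the highest numbers moved alike. SPBPB10D8.04c, SPBPB10D8.05c, SPBPB10D8.06c and SPBPB10D8.07c were lower in channel B with means of -1.72 ± 0.11, -1.94 ± 0.28, -1.80 ± 0.48 and -1.65 ± 0.03 (SD, n = 2 each), and limma adjusted p-values between 8.69e-05 and 0.000257. These probes were among the brightest of the members. SPBPB10D8.05c gave 1166400 in channel A against 503170 in channel B on array 1, and 1323620 against 721239 on array 2. For SPBPB10D8.04c and SPBPB10D8.07c only 1 spot had a signal on array 1.

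The size of these 4 differences depended on the normalization. With each array centred on its median, the means of the 4 genes in order were -1.13, -1.28, -1.24 and -1.06. With no normalization, they were -0.90, -1.05, -1.01 and -0.83. A loess within each print block gave -1.32, -1.24, -1.92 and -1.25, so there SPBPB10D8.06c did not become smaller. All 4 remained lower and past the threshold under these settings. The likeness of the 4 probes' sequences was not tested, so signal shared between them cannot be told apart from 4 separate differences.

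The 3 lowest-numbered genes of this clone did not pass. SPBPB10D8.01 had opposite signs on the arrays, 1.08 on array 1, from 1 spot, and -0.58 on array 2. SPBPB10D8.02c had ratios of 0.28 and -0.37. SPBPB10D8.03 had 0.59 and 0.33, but its spots on array 2 differed by 1.42 on the log2 scale, the widest of any member there. SPBPB10D8.03 passed with no normalization (0.62, limma adjusted p = 0.0231), but its mean was 0.03 with spots of flag C only (limma adjusted p = 0.917) and 0.08 with the authors' values. It was dim, with channel A at 20660 on array 1, below the limit of 22129.

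Clone SPBC1683 held the single gene with the smallest adjusted p of all members, urh1, which encodes a uridine ribohydrolase that splits uridine into uracil and ribose. Its signals were 286672 (channel A) against 68499 (channel B) on array 1 and 291984 against 63913 on array 2. The ratios were -2.26 and -2.50, a mean of -2.38 ± 0.17 (SD, n = 2; limma adjusted p = 1.99e-05), or 5.20-fold lower in channel B. The gene table lets urh1 overlap mal1, an alpha-glucosidase that cuts maltose. mal1 had a smaller difference, with ratios of -0.52 and -0.77 (mean -0.64 ± 0.18, SD, n = 2; limma adjusted p = 0.0200). Neither array gave mal1 a value near that of its neighbour.

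amf1 gave 516275 in channel A against 170443 in channel B on array 1, and 385710 against 231568 on array 2. It was lower on both arrays but by unlike amounts, with ratios of -1.98 and -1.14 (mean -1.56 ± 0.59, SD, n = 2; limma adjusted p = 0.000871). SPBC1683.02, which the table lets overlap amf1, had ratios of -0.74 and -0.27 and did not pass (limma adjusted p = 0.0633), though it did with median centring (adjusted p = 0.0385).

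pho841, a phosphate transporter, had ratios of -0.73 and -0.94 (mean -0.84 ± 0.15, SD, n = 2; limma adjusted p = 0.00547). pcl1, a vacuolar iron transporter, had ratios of -0.999 and -0.70 (mean -0.85 ± 0.21, SD, n = 2; limma adjusted p = 0.00572). SPBC1683.12 had -0.62 and -0.84 (mean -0.73 ± 0.16, SD, n = 2; limma adjusted p = 0.0109). Each of these 3 differences was below 2-fold. With no normalization mal1, pho841 and SPBC1683.12 did not pass, with limma adjusted p-values of 0.0925, 0.0622 and 0.0658. The other genes of the clone, SPBC1683.04, thi7, icl1 and cha4, had means of -0.33, 0.23, 0.24 and -0.40 and did not pass.

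**Figure D3:**
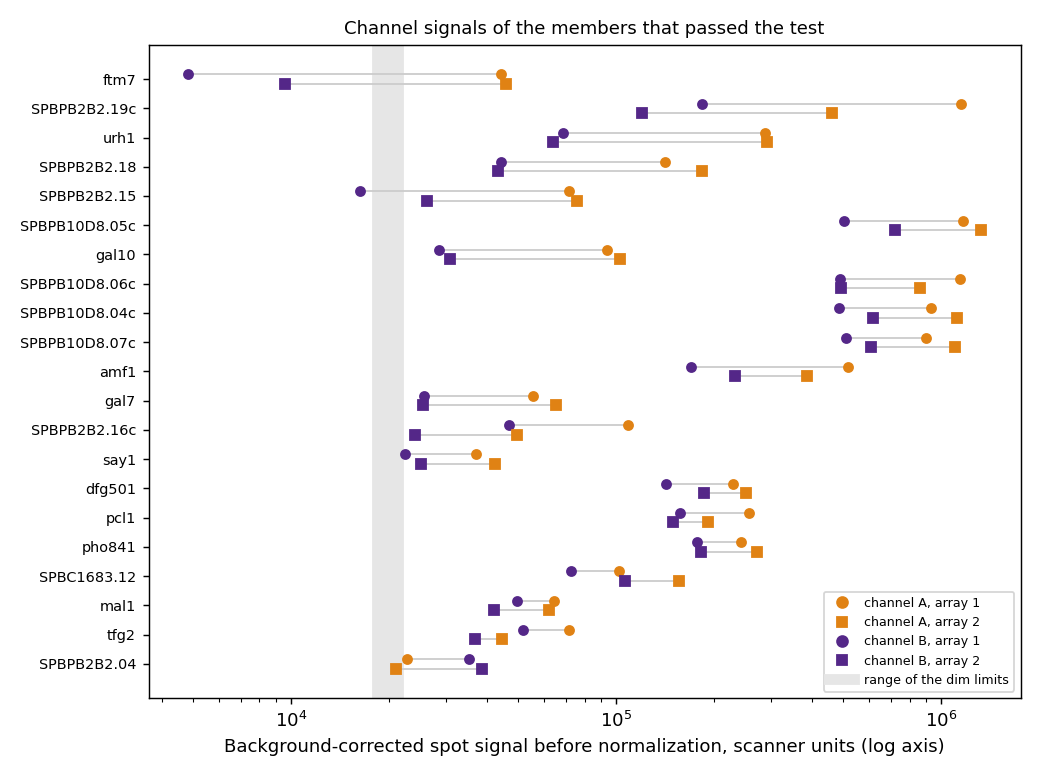
Background-corrected channel signals before normalization (horizontal log axis, scanner units) of the 21 members that passed, in order of their mean ratio, with channel A in orange, channel B in purple, circles for array 1 and squares for array 2. The 20 genes above SPBPB2B2.04 are brighter in channel A on both arrays, and only ftm7 lies below the grey band of dim limits in channel B on both.

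On SPBC1198 the 2 genes that passed were dfg501 and tfg2. dfg501 is of a family of membrane-anchored cell wall proteins. Array 1 gave it 229186 in channel A against 141899 in channel B, and array 2 gave 251110 against 186326. The mean ratio was -0.86 ± 0.10 (SD, n = 2; limma adjusted p = 0.00455). dfg502, its neighbour in the table and a member of the same family, had ratios of -0.16 and 0.17. The family members thus lay apart, though the difference between them was not tested. tfg2, a subunit of the general transcription factor TFIIF, had ratios of -0.60 and -0.47 (mean -0.54 ± 0.09, SD, n = 2; limma adjusted p = 0.0375), but did not pass with no normalization (adjusted p = 0.192). The table places mfr1, an activator of the anaphase-promoting complex in meiosis, and tfg2 in 1 stretch, one inside the other. mfr1 had ratios of 0.07 and -0.71 and did not pass.

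The other 10 genes of SPBC1198 had means between -0.13 and 0.47. The highest was dug1, a dipeptidase that takes part in glutathione breakdown, with ratios of 0.20 and 0.74 (mean 0.47 ± 0.38, SD, n = 2; limma adjusted p = 0.0852). It passed as higher in channel B with median centring (0.69), print-block loess (0.64) or no normalization (0.92). dea2, an adenine deaminase, had a mean of 0.37, which passed with no normalization (0.55), and slm5, a mitochondrial asparaginyl-tRNA synthetase, one of 0.20. guk1, the guanylate kinase, had 0.11, reb1, which binds DNA and ends transcription of the ribosomal RNA genes, 0.02, and ubc16, a ubiquitin-conjugating enzyme, 0.12. zas1, a zinc-finger transcription factor, had -0.11, fmd2 -0.13, and SPBC1198.03c 0.06. None of these passed after loess.

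Of all members, 11 pairs of neighbours, 20 genes in all, overlap in the gene table. In the pairs amf1 and SPBC1683.02, gal10 and tgd1, guk1 and dfg501, and tfg2 and mfr1, 1 gene passed and the other did not, but the difference within a pair was not tested. In the pairs urh1 and mal1, and SPBPB2B2.18 and SPBPB2B2.19c, both passed and both were lower in channel B.

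The 3 members not tested were SPBPB2B2.03c, SPBPB2B2.05 and SPBPB2B2.08, because both channels fell below the limit on at least 1 array. SPBPB2B2.03c was below it in both channels on both arrays, at 10720 and 6756 on array 1. SPBPB2B2.05 and SPBPB2B2.08 were above it on array 1 only, with channel A at 72117 and 40308. With no filter their means were -0.47, -0.22 and -0.17, and none passed.

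**Figure D4:**
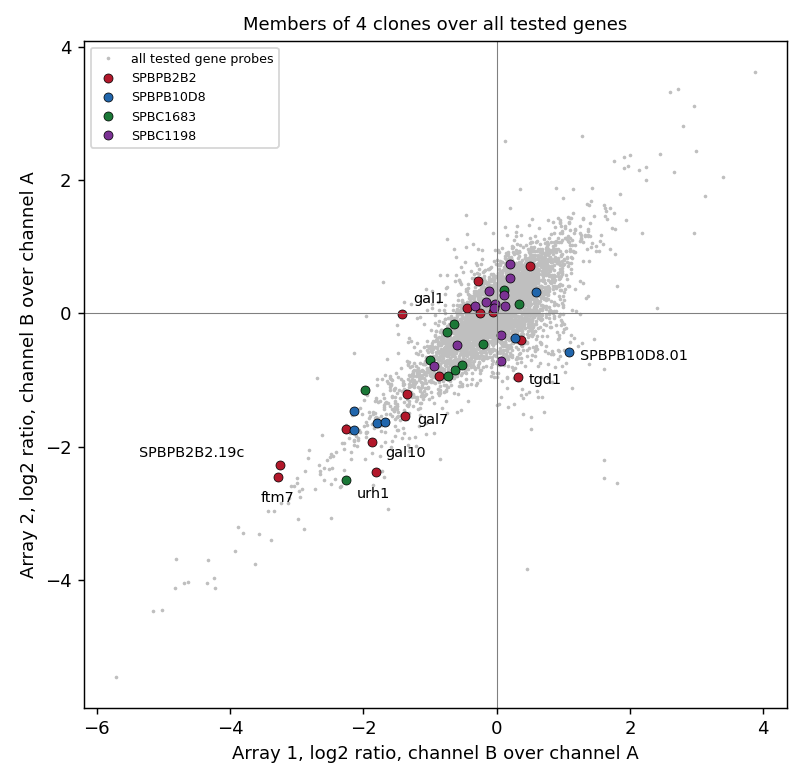
Log2 ratio on array 2 (vertical axis) against array 1 (horizontal axis) for all tested gene probes in grey and the members coloured by clone. Most members that passed lie in the lower left, with negative ratios on both arrays, and gal1, tgd1 and SPBPB10D8.01 lie away from the diagonal.

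Across the 47 tested members, 32 had the same sign on both arrays, and 33 had a negative mean. Over all 4832 tested genes, 3667 had the same sign on both arrays and 2346 had a negative mean. The share with the same sign was thus smaller among the members than over all tested genes, a difference that was not tested. The plot of array 2 against array 1 shows both values of each member. Members with opposite signs of at least 0.5 each way were limited to SPBPB10D8.01. No member had a spot with saturated pixels.

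**Figure D5:**
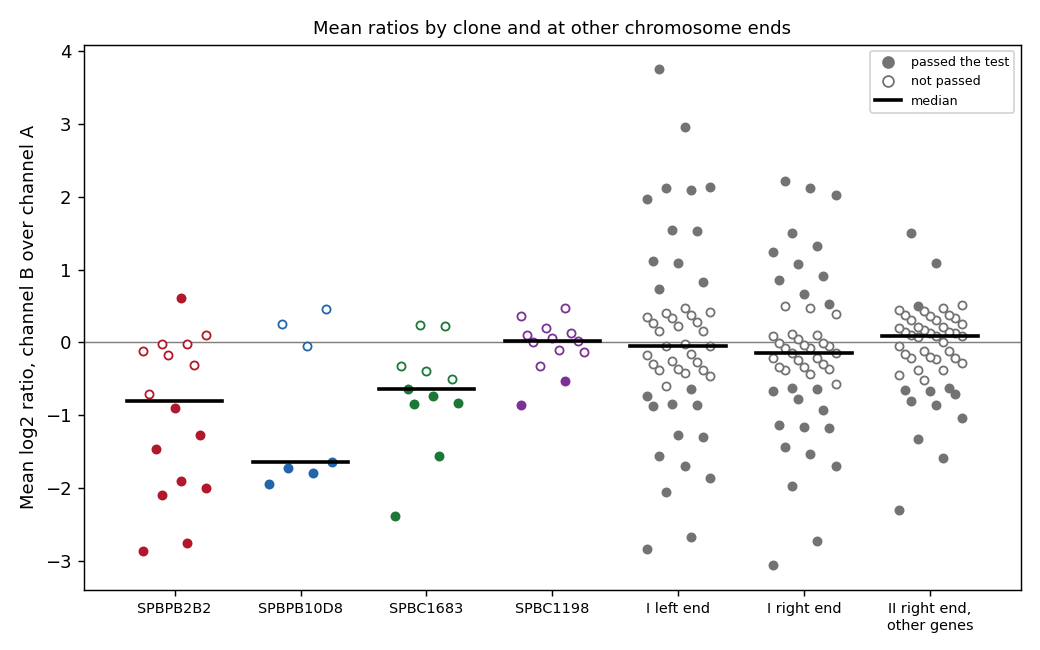
Mean normalized log2 ratio B/A (vertical axis) for the members of each clone and for the 50 tested genes nearest to each of 3 other chromosome ends, filled where the test was passed, with black bars for medians. Values of SPBPB2B2, SPBPB10D8 and SPBC1683 lie mainly below 0, while the other ends hold genes that passed in both directions.

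For the other chromosome ends, the 50 tested genes nearest to each end were counted, members left out. At the left end of chromosome I, 13 were lower and 12 higher in channel B, with a median of -0.04. At the right end of chromosome I, 14 were lower and 11 higher, with a median of -0.15. At the right end of chromosome II, where SPBPB2B2 lies in the table, 10 of the other genes were lower and 3 higher, with a median of 0.08. The shares that passed were 50%, 50% and 26% in this order, against 44.7% of the members and 28.9% of all tested genes. Of these, 26%, 28% and 20% were lower, against 16.9% of all tested genes. The shares higher were 24%, 22% and 6%, against 12.0%. The members had 1 higher gene in 47, but no test of this difference between ends was made. The positions are also unlike, since the left-end members start only at the 30th gene from their end.

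Probes named SPAC1348 were not counted as members. Of 13 such probes, 12 carry gene numbers that the gene table lists under SPBC1348, a clone of the left end of chromosome II, but the table does not pair the names. Of the 13, 11 were tested, 6 were lower in channel B and none higher, with a median of -0.88. That median is the normalized value of SPAC1348.10c, 1 of the 6. Before normalization its channel A signal was 1392350 against 2310450 in channel B on array 1, and 1376320 against 1293660 on array 2. Its call as lower thus depended on the normalization. The share lower was 54.5%, against 16.9% of all tested genes. SPAC1348.02 had the largest difference, with ratios of -2.88 and -2.36 (mean -2.62 ± 0.36, SD, n = 2; limma adjusted p = 1.99e-05). With these probes added, 27 of 58 genes passed, 26 lower and 1 higher, and the median was -0.36.

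Other genes of galactose use and of galactose transfer to proteins lie elsewhere in the genome. Of 18 listed, 15 were tested, 1 was lower (gmh1, a galactosyltransferase, -0.58) and 3 were higher: fyu1 (0.88), pgm1 (0.75), a phosphoglucomutase, and gms1 (0.73), the UDP-galactose transporter of the Golgi. The median of the 15 was 0.20. The share that passed, 26.7%, was near the 28.9% of all tested genes. Of the 15, 6.7% were lower and 20% higher in channel B, against 16.9% and 12.0% of all tested genes, a difference that was not tested. uge1, the other UDP-glucose 4-epimerase, had ratios of 0.26 and 0.14 and did not pass.

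Of 37 listed genes for subtelomere silencing and for regulators known to act there, some spotted under more than 1 name, 37 probes were tested, 4 being lower and 2 higher in channel B, with a median of -0.04. The lower ones were pcr1 (-1.94) and atf1 (-0.83), which form a stress-responsive transcription factor, hst2 (-1.34), a sirtuin deacetylase, and ago1 (-0.62), the Argonaute of RNA interference. The higher ones were sir2 (0.67), a histone deacetylase of heterochromatin, and leo1 (0.63), a subunit of the Paf1 complex. The share that passed, 16.2%, was below the 28.9% of all genes. tup11, a partner of Ssn6, had a mean of 0.26 (limma adjusted p = 0.264).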

How the data were processed

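Both arrays were read from the scanner tables; per the file headers, the deposited background-corrected intensity of each spot in channels A and B was used, with spot flags and saturated-pixel counts (a score). Deposited ratio, background and fraction columns served only to check or rebuild signals. Per the labels the authors lowess-normalized their own values; the deposited value table holds log10 ratios, of which rows from 5761 on did not follow the spot order and were not used. Members and gene lists were chosen with earlier results of these data known. In R 4.3.3 with limma 3.58.1, 50 was added to each intensity, log2 ratios were loess-normalized per array (span 0.3), spots of a probe were averaged, and the mean of 2 arrays was tested against 0 with lmFit and eBayes, Benjamini-Hochberg adjusted over 4832 genes, at 0.05. Nothing says that the RNA came from separate cultures, so p-values measure the spread between these arrays; an exact permutation test could not go below 0.5. Probes below the 95th percentile of 822 negative spots in both channels of either array were left out. The code was tested on simulated data. Of the members, 47 matched the RefSeq table (44 by locus tag and 3 by symbol). Named were the galactose genes and their neighbours, members that passed, the largest non-passing means, members of opposite sign, and dim members; others complete the account of each clone and were chosen after their values were seen. Probe, promoter and protein sequences were not used here.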

Additional observations from a re-analysis of the deposited data

Results flagged for a closer look

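Besides the gene probes, 3 probes are named for clone pB10D8 itself, and 2 of them were above the dim limit in both channels on both arrays although no comparison uses them. pB10D8_sanger_10 had a mean log2 ratio of -0.442, with -0.57 on array 1 and -0.31 on array 2. pB10D8_sanger_8 had a mean of -0.149, with 0.48 and -0.77, so its sign differed between the arrays. What these probes hold is not given in the sources used here.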

How the results depend on the processing

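The limits are those of 2 arrays whose channels are not tied to a dye in the sources used here. The count of 21 members stayed between 21 and 23 with no offset, an offset of 200, normexp on the rebuilt signal, median centring, print-block loess, no normalization, no filter on dim probes, no saturated spots and spots of flag C only, and the same 21 genes passed in each of these except with no normalization (17 of them, with 4 other genes). It was 0 with the authors' deposited values, which hold 1 usable spot per probe and under which 0 of all tested genes passed (1780 at an unadjusted p under 0.05); the lowest adjusted p of a member was then 0.0760. The count of members was also 0 with the sign of array 1 turned, as a labelled dye swap would need, where again 0 of all tested genes passed. The median of -0.33 was -0.40 with median centring, -0.38 with print-block loess, -0.17 with no normalization, -0.40 with flag C spots only, -0.40 with the authors' values, -0.36 with the SPAC1348 probes (an alternative chosen after seeing the data) and between -0.46 and -0.44 with 1 array left out, where no test is possible. With no normalization the median of all genes was 0.24, 446 genes were lower and 1275 higher, and 17 members were lower and 4 higher, with gal1 (-0.55), dea2 (0.55), dug1 (0.92) and SPBPB10D8.03 (0.62) newly past the threshold and tfg2, pho841, mal1 and SPBC1683.12 no longer past it.

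With the sign of array 1 turned the median was 0.072, and 12 genes that had passed changed sign without passing: dfg501 (0.072), tfg2 (0.064), amf1 (0.42), pcl1 (0.15), SPBPB10D8.04c (0.077), SPBPB10D8.05c (0.20), SPBPB10D8.06c (0.34), SPBPB10D8.07c (0.019), SPBPB2B2.15 (0.26), SPBPB2B2.16c (0.068), ftm7 (0.41) and SPBPB2B2.19c (0.49). The arrays as deposited correlate at 0.81, so turning 1 of them leaves mainly the difference between arrays. These sign changes can therefore not be read as reversed results. The test is itself paired, since each ratio sets both cultures against each other on 1 array, and no other pairing exists.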
